A study of Mus musculus with 10 samples.

Results

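The Ikaros family of zinc finger transcription factors was followed through its 5 genes, Ikzf1 (Ikaros), Ikzf2 (Helios), Ikzf3 (Aiolos), Ikzf4 (Eos) and Ikzf5 (Pegasus). Members were taken by gene symbol, and all 5 of the 18193 genes named on the array were found, through 13 probe sets. Ikzf2, Ikzf3 and Ikzf4 had 3 probe sets each, and Ikzf1 and Ikzf5 had 2 each. A probe set is the group of short probes that together report 1 signal for a transcript. The filter on low values used here kept a probe set whose mean exceeded the 40th percentile over the whole array. It kept 8 of the 13 probe sets and at least 1 for each gene.

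The arrays measured sorted bone marrow cells of 10 female mice aged 8 weeks on a B6.SJL background, 5 Mll-deficient and 5 control, 1 array for each mouse. Both groups carried Mll alleles flanked by loxP sites (Mll F/F), and the Mll-deficient mice also carried Mx1-cre, a recombinase transgene driven by an interferon-inducible promoter that is active in many cell types. All 10 mice were given 3 injections of pI:pC, a synthetic double-stranded RNA that triggers interferon release, at 10 µg per gram of mouse plus 50 µg and spaced 48 hours apart. The LSK/CD48- fraction (lineage-negative, Sca-1-positive, Kit-positive and CD48-negative), enriched for haematopoietic stem cells, was sorted on day 6. RNA of 1500 to 10000 cells was amplified before labelling. The control mice had no cre, so an effect of cre cannot be told apart from that of Mll loss. Less RNA per cell and fewer expressing cells cannot be told apart in such a bulk sample.

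Ikaros proteins bind DNA through zinc fingers near their amino end and pair with each other through a further set near the carboxyl end. They recruit chromatin complexes, mainly the NuRD deacetylase and remodelling complex, and can repress or activate genes. Ikaros is needed for lymphocyte development and primes lymphoid genes in early progenitors, and Helios is made in stem cells and in T cells. Mll (gene symbol Kmt2a) is a histone H3 lysine 4 methyltransferase needed to keep genes active in stem cells, and the series asked which genes depend on it there.

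All 10 arrays had been scaled to the same trimmed mean, with medians of 18.1 to 28.9 arbitrary units. Control replicate 5 stood apart. It correlated with the remaining controls at 0.926 on average and had the highest ratio of 3' to middle probe sets of Gapdh and Actb (5.19 on the log2 scale), a measure of RNA quality. This ratio did not separate the groups, at 2.95 ± 1.41 in controls and 3.14 ± 0.598 in Mll-deficient samples (SD, n = 5 each, two-sided exact permutation p = 0.810). Of the markers of the sort, Kit averaged 126 units in controls and 72.3 in Mll-deficient mice, with all 5 Mll-deficient values below every control (-0.73 ± 0.27, SE, limma adjusted p = 0.132). Cd48 averaged 109 and 124 units, and no probe set named Ly6a (Sca-1) alone. The 9 granulocyte and monocyte markers on the array summed to between 55710 and 81988 units in controls and between 65321 and 107126 in Mll-deficient samples. None of these 9 passed in limma, and 4 had an unadjusted p under 0.05, namely Itgam (-0.73, no overlap), Prtn3 (0.68), Elane (0.97) and Mpo (0.71). At least 2598 of all 12580 tested genes had such an unadjusted p. Of the 9, 6 had differences above 0 and 3 below.

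Ikzf2 was the only member that passed the test, and it was lower in Mll-deficient mice. On its brightest probe set, 1437542_at, the 5 control mice read 587, 752, 1009, 732 and 1045 units, in the order of replicates 1 to 5. The Mll-deficient mice read 552, 384, 294, 392 and 406 units. Every Mll-deficient value lay below every control value, although Mll-deficient replicate 1 came close to control replicate 1. The mean signal went from 825 ± 196 to 406 ± 92.9 (SD, n = 5 each). The difference between the groups on the log2(signal + 16) scale, Mll-deficient minus control, was -0.99 ± 0.22 (SE of the limma fit over 12580 genes, Benjamini-Hochberg adjusted p = 0.0168). Of all tested genes, 5.52% passed this threshold of 0.05 in either direction and 1.76% were lower, and the groups did not overlap for 6.96%.

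A second Ikzf2 probe set fell as well, at a dimmer signal. On 1456956_at the controls read 75.6, 76.9, 125, 111 and 59.6 units, in order of replicate. In Mll-deficient mice it read 23.7, 47.1, 18.1, 38.6 and 19.8 units. The groups again did not overlap, and control replicate 5, the highest of all mice on the brighter probe set, was the lowest control here. The groups did not overlap for 3.68% of all probe sets. When all 45037 probe sets were fitted without a filter, 1.31% were called. In that fit this probe set differed by -1.22 ± 0.27 (SE, adjusted p = 0.0340) and the brighter one by -0.99 ± 0.22 (SE, adjusted p = 0.0343). The size for 1456956_at depended on the offset, at -1.62 with an offset of 1 and -0.71 with an offset of 64. The difference between the falls of these probe sets, taken within each array, was 0.23 (exact permutation p = 0.460, two-sided, adjusted p = 0.580 over 8 pairs of probe sets). Once each group's mean was removed, the values of the pair had a Pearson correlation of 0.076 over the 10 arrays, so they shared little of the variation among mice of a group.

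The remaining Ikzf2 probe set, 1421643_at, lay far below the filter. It read between 0.77 and 15.6 units in controls and between 0.55 and 9.31 units in Mll-deficient mice, with a difference of -0.03 (95% interval -0.40 to 0.35, limma adjusted p = 0.972). The response of 1437542_at minus that of this probe set was -0.97, with no overlap (exact permutation p = 0.00794, adjusted p = 0.0635 over the 8 pairs). As 1421643_at lay near the floor and had little room to fall, this largely repeats the -0.99 of 1437542_at. With 8 pairs, a single pair at the smallest possible p could not pass the adjusted threshold.

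The Ikzf2 call rested on a threshold that single arrays could move. In the gene fit its difference stayed between -1.11 and -0.89 when 1 array was left out, and the adjusted p rose to 0.0521 without control replicate 3 and 0.0502 without Mll-deficient replicate 3. Without control replicate 5, the array that stood apart, the difference was -0.90 (limma adjusted p = 0.0239). In the fit over all probe sets, median centring of the arrays ended the calls of both Ikzf2 probe sets (limma adjusted p = 0.0528 and 0.0635), quantile normalization ended that of 1456956_at (0.05003), and each lost its call in 6 of the 10 fits with 1 array left out.

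**Figure D1:**
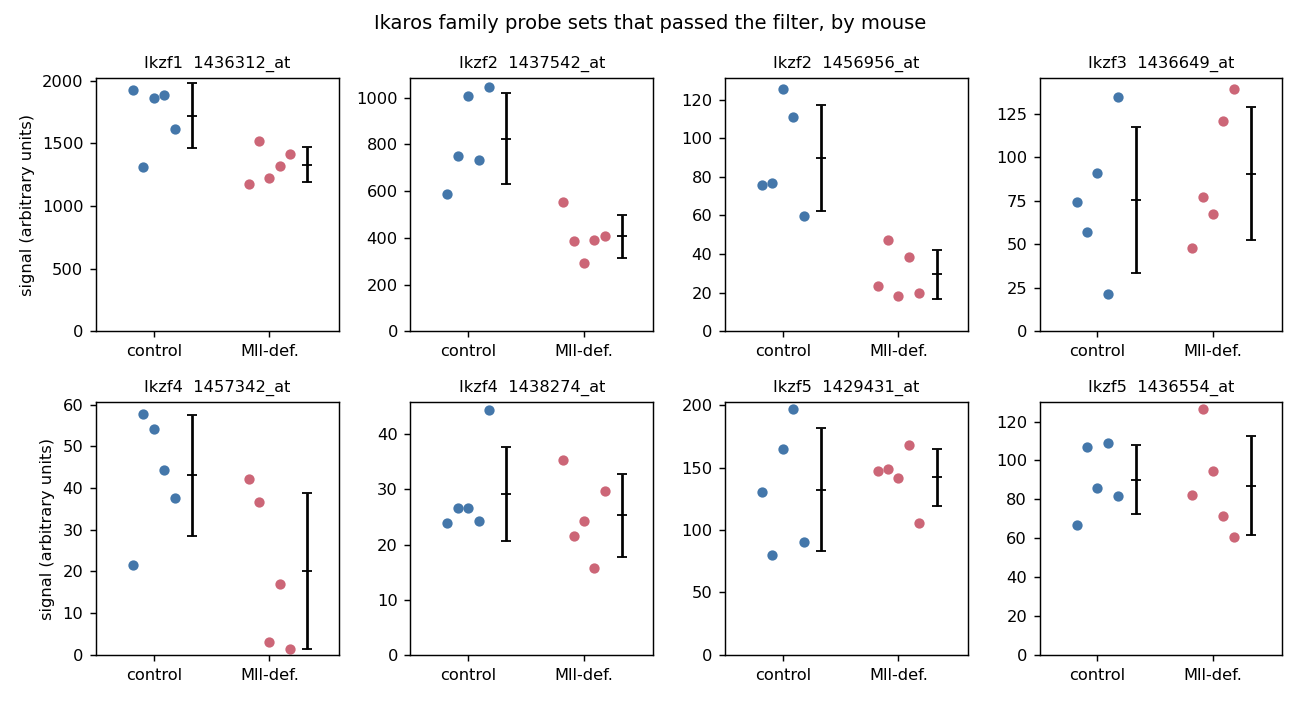
Signal (arbitrary units, linear axes from 0) of the 8 Ikaros family probe sets that passed the filter, with 1 point for each mouse in order of replicate and the mean ± SD of each group (n = 5) beside the points. The 2 groups separate on both Ikzf2 probe sets (587 to 1045 against 294 to 552 units on 1437542_at) and overlap on the 6 others.

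Ikzf1, which encodes Ikaros itself, did not pass the test. Its brighter probe set, 1436312_at, read 1927, 1315, 1861, 1888 and 1615 units in controls. The Mll-deficient mice read 1177, 1518, 1223, 1323 and 1413 units. Only 2 of the 5 Mll-deficient mice lay below all controls, because control replicate 2 was low, and the groups overlapped. The mean signal was 1721 ± 258 in controls and 1331 ± 139 in Mll-deficient mice (SD, n = 5 each). The log2 difference was -0.36 ± 0.18 (SE, limma adjusted p = 0.284), with a 95% interval from -0.75 to 0.03. The other Ikzf1 probe set, 1421303_at, was below the filter at 1.65 to 17.2 units over the 10 mice. Its difference had the opposite sign, at 0.39 (95% interval -0.02 to 0.80, limma adjusted p = 0.419), and the mean of both probe sets gave 0.016. The response of the brighter minus the dimmer probe set was -0.75 (exact permutation p = 0.0159, adjusted p = 0.0635 over the 8 pairs).

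Ikzf3 encodes Aiolos, which is known mainly from committed B and T cells. On its brightest probe set, 1436649_at, the controls read 74.2, 57.1, 91.0, 21.4 and 135 units. Mll-deficient mice read 47.8, 77.2, 67.5, 121 and 139.5 units. Both groups spread over the same range, and the difference was 0.28 ± 0.34 (SE, limma adjusted p = 0.699, 95% interval -0.44 to 1.004). Without control replicate 4, the lowest of all, it was -0.0076. The other Ikzf3 probe sets were below the filter, at 0.98 to 20.6 units over all mice, and differed by -0.05 and 0.06 (limma adjusted p = 0.961 and 0.927).

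Ikzf4 encodes Eos, known as a partner of Foxp3 in regulatory T cells. Its signal was dim. On 1457342_at the controls read 21.5, 57.8, 54.1, 44.4 and 37.5 units. The Mll-deficient mice read 42.0, 36.6, 3.06, 17.0 and 1.43 units. Of the Mll-deficient mice 3 lay below all controls, and replicates 1 and 2 lay within the control range. The difference was -0.85 ± 0.34 (SE, limma adjusted p = 0.160), with an unadjusted 95% interval from -1.56 to -0.13. A second probe set that passed the filter, 1438274_at, read 24.0 to 44.4 units in controls and 15.7 to 35.3 units in Mll-deficient mice, and its difference was -0.13 ± 0.25 (SE, limma adjusted p = 0.888). The mean levels of these probe sets nearly tied, so which of them stood for the gene switched to 1438274_at with an offset of 1 (-0.21), with quantile normalization (-0.063), and without control replicate 2, 3 or 4 or Mll-deficient replicate 1 or 2 (-0.21 to -0.10). The size for 1457342_at itself depended on the offset, at -1.76 with an offset of 1 and -0.37 with an offset of 64. The remaining one, 1460664_at, stayed at 4.53 units or less in every mouse.

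Ikzf5 encodes Pegasus, the most divergent member of the family. Its brighter probe set, 1429431_at, read 130, 80.0, 165, 197 and 90.1 units in controls. Values of 148, 149, 141, 168 and 105 units were read in Mll-deficient mice, all within the control range. The difference was 0.15 ± 0.25 (SE, limma adjusted p = 0.796, 95% interval -0.38 to 0.67). The other probe set, 1436554_at, read 90.1 ± 17.7 and 87.1 ± 25.5 (SD, n = 5 each) and differed by -0.06 ± 0.24 (SE, limma adjusted p = 0.953).

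In all, 1 of the 5 genes and 2 of the 13 probe sets passed, beside 5.52% of all tested genes and 1.31% of all probe sets. The count of 2 fell to 0 with median centring and without control replicate 3 or 4 or Mll-deficient replicate 3 or 5, and to 1 with quantile normalization and without control replicate 1 or Mll-deficient replicate 1, 2 or 4. The median difference of the 5 genes was -0.36, beside -0.04 for all tested genes. The median over the 13 probe sets was -0.05, beside -0.03 for all probe sets, and 9 of the 13 lay below 0.

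**Figure D2:**
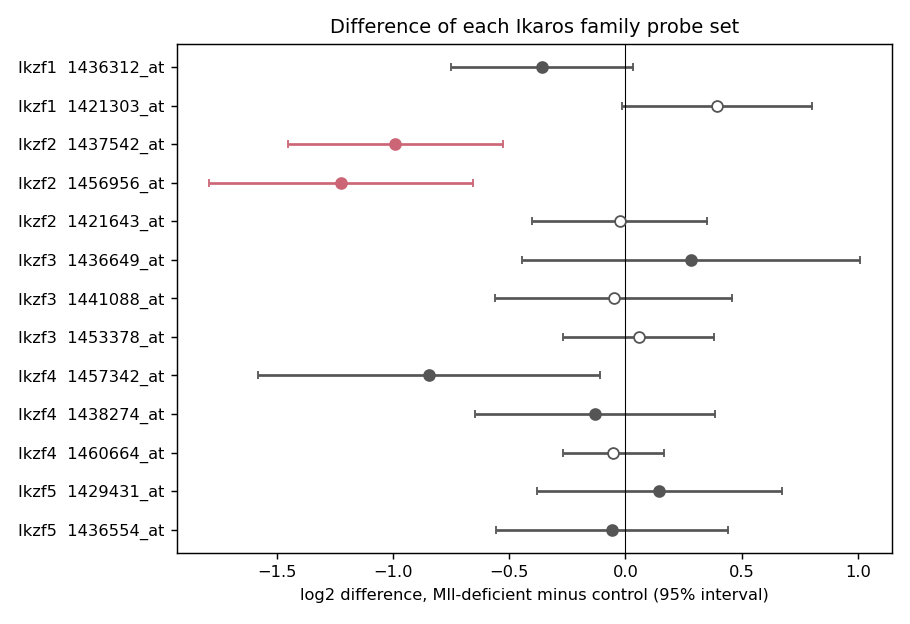
Log2 difference (Mll-deficient minus control) of each of the 13 Ikaros family probe sets with its 95% interval, from the limma fit over all probe sets. Red marks the pair that passed (Ikzf2, -0.99 and -1.22), filled points passed the filter on low values and open points did not.

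Whether members differed in their response was tested on the within-array log2 difference between their brightest probe sets, for all 10 pairs of members. Ikzf2 fell relative to Ikzf5 by 1.14, with no overlap between the groups (two-sided exact permutation p = 0.00794, the smallest that the design allows, adjusted p = 0.0794). Relative to Ikzf3 the difference was -1.27 (exact permutation p = 0.0238, adjusted p = 0.119). Ikzf1 minus Ikzf2 was 0.63 higher in Mll-deficient mice (exact permutation p = 0.0476, adjusted p = 0.119). Ikzf2 minus Ikzf4 differed by -0.15 (exact permutation p = 0.659, adjusted p = 0.732), a value that ran from -0.55 with an offset of 64 to 0.74 with an offset of 1. Of the 10 pairs, 0 passed 0.05 after adjustment and 4 had an unadjusted p under 0.05, the fourth being Ikzf1 minus Ikzf5 (-0.50, exact permutation p = 0.0397, adjusted p = 0.119). With 10 pairs, a single pair at the smallest possible p could not pass the adjusted threshold, so these tests do not settle whether members differed.

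**Figure D3:**
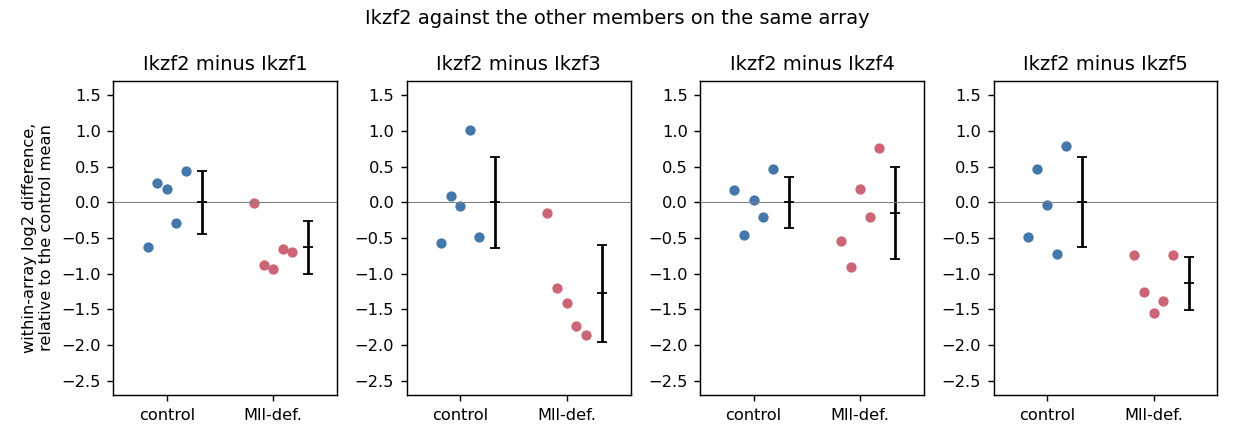
Within-array log2 difference between Ikzf2 and each other member, set to 0 at the control mean, with 1 point for each mouse and the mean ± SD of each group (n = 5). The groups separate for Ikzf2 minus Ikzf5 (a shift of -1.14) and overlap for the rest, with a shift of -0.15 for Ikzf4.

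For each member, the 3 genes closest to it in pattern were found by Pearson correlation of log2 values over the 10 arrays, after removing each group's mean, among the 12579 other tested genes. They were the highest of many correlations, so r is a description of these arrays, which share their scaling and amplification. Ikzf2 was closest to Scrn1 (r = 0.977), Heatr3 (r = 0.923) and Pop1 (r = 0.921). Heatr3, needed for import of a ribosomal protein into the nucleus, and Pop1, a subunit of the RNase P and RNase MRP enzymes, themselves rose in Mll-deficient cells, by 1.21 ± 0.22 and 1.25 ± 0.24 (SE, limma adjusted p = 0.00516 and 0.00668). Among mice of a group they thus varied with the brightest Ikzf2 probe set, 1437542_at, while between the groups they went the other way. The second Ikzf2 probe set, 1456956_at, shared little of that variation (r = 0.076 with 1437542_at), so these r describe 1 probe set. Ikzf1 was closest to Kifbp (r = 0.983), Zbtb11 (r = 0.941) and Paip1 (r = 0.932), and Ikzf5 to Tmem29 (r = 0.923), Itgb3bp (r = 0.921) and Amn1 (r = 0.911).

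Ikzf4 was closest to Meis1 (r = 0.928), a homeobox factor of stem cells whose difference was -1.13 ± 0.38 (SE, limma adjusted p = 0.0978), then to Gpn1 (r = 0.912) and Carns1 (r = 0.907). Ikzf3 was closest to the proteasome subunit gene Psmd3 (r = 0.972), the myeloid factor gene Cebpa (r = 0.964) and Pdgfrb (r = 0.953). Psmd3 was the only one of these 15 genes on the same chromosome as its member, with 6 protein-coding genes between their starts in the RefSeq table of the GRCm38.p6 assembly. Between the members themselves, the highest r was 0.591, for Ikzf1 and Ikzf5, followed by 0.564 for Ikzf2 and Ikzf4. Probe sets of the same gene that passed the filter had r of 0.076 (Ikzf2), 0.038 (Ikzf4) and 0.188 (Ikzf5). The measure therefore describes single probe sets and cannot show whether the genes are alike.

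Genes of the complexes through which Ikaros proteins act were compared next. Of 19 tested genes of the NuRD, Sin3 and CtBP corepressor complexes, 0 passed in limma, and the median difference was 0.06. Among them 1 had an unadjusted p under 0.05, as did at least 2598 of all 12580 tested genes. That 1 gene was the corepressor gene Ctbp2 (-0.49 ± 0.22, SE, limma adjusted p = 0.206), and Cdk2ap1, a small NuRD subunit, followed (0.39 ± 0.20, adjusted p = 0.283). Chd4, the NuRD remodelling ATPase that copurifies with Ikaros, read 1660 in controls and differed by -0.10 ± 0.25 (SE, limma adjusted p = 0.872). Hdac1, a NuRD deacetylase, differed by 0.29 ± 0.18 (SE, limma adjusted p = 0.411).

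Of 13 tested genes of the SWI/SNF remodelling complex, which also associates with Ikaros, 2 fell and 11 did not pass, with a median of 0.02, beside calls for 5.52% of all tested genes. Arid1b, a DNA-binding subunit, read 280, 265, 324, 285 and 317 units in controls. Those of Mll-deficient mice were 136, 153, 117, 191 and 149 units. The groups stood well apart, and the difference was -0.92 ± 0.20 (SE, limma adjusted p = 0.0133). Smarca2, an ATPase of the complex, fell from 246 ± 53.2 to 114 ± 49.5 units (SD, n = 5 each), by 1.06 ± 0.26 (SE, limma adjusted p = 0.0257), with 4 of 5 Mll-deficient mice below all controls. In the fit over all probe sets its other probe set differed by -0.17 ± 0.26 (SE, limma adjusted p = 0.848). The call of Smarca2 ended when its probe sets were averaged (adjusted p = 0.0703), with median centring (adjusted p = 0.0596), and without control replicate 1, 3 or 4 or Mll-deficient replicate 1, 3 or 5 (adjusted p between 0.0587 and 0.0779), while that of Arid1b held whichever array was left out. Smarca4, the alternative ATPase, differed by 0.27 ± 0.29 (SE, limma adjusted p = 0.656).

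Lymphoid genes linked to Ikaros, some of which it promotes and others restrains, had differences below 0 in all 10 that were tested, as did 6714 of the 12580 tested genes. Of the 10, 1 fell and 9 did not pass, and their median was -0.85, beside -0.04 for all tested genes, of which 1.76% passed as lower. The gene that fell was Il7r, the interleukin 7 receptor. Its control mice read 346, 179, 422, 164 and 549 units. Mll-deficient mice read 31.6, 155, 127, 154 and 122 units. The groups did not overlap but nearly touched, and the difference was -1.37 ± 0.38 (SE, limma adjusted p = 0.0443). That call ended without control replicate 1, 3 or 5 or Mll-deficient replicate 1, 3 or 5 (adjusted p between 0.0695 and 0.108), and in 5 of the 11 alternatives that kept all arrays (0.0581 to 0.144). In the fit over all probe sets the other Il7r probe set was at -0.47 ± 0.35 (SE, limma adjusted p = 0.643).

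Dntt, the terminal transferase of lymphoid progenitors, read 5122 ± 2322 in controls and 2458 ± 1291 in Mll-deficient mice (SD, n = 5 each), a difference of -1.11 ± 0.37 (SE, limma adjusted p = 0.0959). Satb1, a chromatin organiser, differed by -0.84 ± 0.28 (SE, limma adjusted p = 0.0995). Neither passed. In the fit over all probe sets the other Dntt probe sets differed by -0.21 and -0.83. The other Satb1 probe sets differed by -0.26, -0.90, -0.68 and 0.04, and none of these passed in limma. Igll1 and Vpreb1, which encode the surrogate light chain of B cell precursors, differed by -0.02 and -0.20 (limma adjusted p = 0.988 and 0.907).

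Genes of the Notch pathway, which Ikaros restrains in T cells, gave 0 calls among 9 tested in limma. Their median was -0.37, beside -0.04 for all tested genes. Of the 9, 2 had an unadjusted p under 0.05, as did at least 2598 of all 12580 tested genes. Rbpj, the DNA-binding factor of the pathway, read 1024 ± 123 and 734 ± 131 units (SD, n = 5 each), with 4 of 5 Mll-deficient mice below all controls (-0.48 ± 0.19, SE, limma adjusted p = 0.165). The receptor genes Notch2 and Notch1 differed by -0.40 ± 0.19 and -0.37 ± 0.19 (SE, limma adjusted p = 0.238 and 0.288). The Notch targets Hes1, at -0.26 ± 0.30, and Dtx1, at 0.18 ± 0.23, did not pass (SE, limma adjusted p = 0.687 and 0.707).

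**Figure D4:**
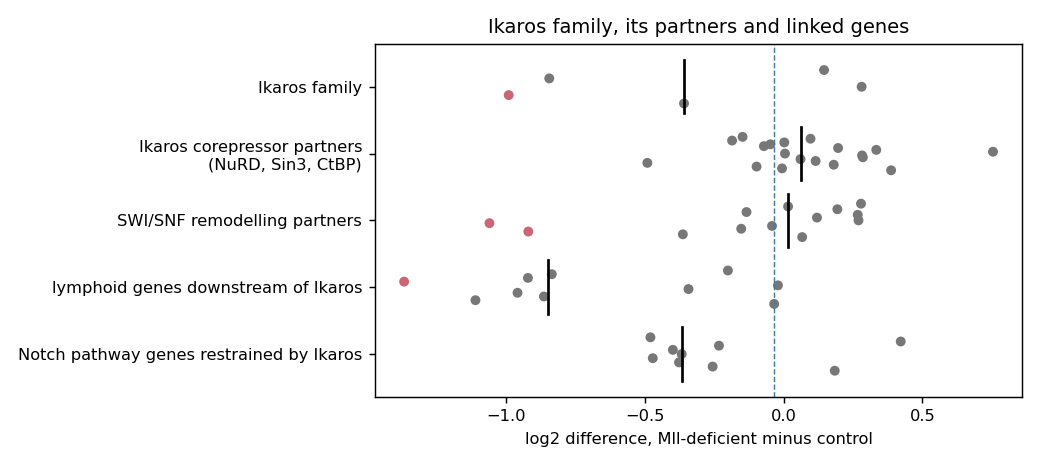
Log2 difference (Mll-deficient minus control) of each tested gene of the Ikaros family and of 4 linked gene lists, with 1 point for each gene, red where the limma adjusted p was under 0.05, a black bar at the list median and a dashed line at the median of all tested genes (-0.04). The lymphoid genes lie below 0 with a median of -0.85, and the corepressor genes centre on 0.06.

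Ikaros family genes are active in lymphocytes, so markers of cells that the sorted fraction could hold were read beside them. Of 10 tested T and natural killer cell markers 0 passed in limma (none had an adjusted p under 0.0583 and 1 an unadjusted p under 0.05). The signals of the 15 on the array summed to between 602 and 995 units in controls and between 890 and 1836 in Mll-deficient mice. These sums include Cd3e, Cd3g, Cd4, Cd6 and Foxp3, which were below the filter. The gene nearest the threshold was Nkg7, a cytotoxic granule gene (0.96 ± 0.28, SE, limma adjusted p = 0.0583). Much of each sum came from Nkg7 alone, which averaged 447 units in controls and 871 in Mll-deficient mice. Of 9 B cell markers 0 passed in limma and 1, Fcrla, had an unadjusted p under 0.05 (-0.94 ± 0.33, SE, adjusted p = 0.114). As given above, at least 2598 of the 12580 tested genes reached that level. Their sums lay between 922 and 1508 units in controls and between 796 and 1726 in Mll-deficient mice, and Cd79a differed by -0.0029.

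Other marker lists were also compared between the groups. Of 10 tested erythroid markers 8 rose, beside 473 of all 12580 tested genes. The summed signal of the 10 lay between 659 and 4955 units in controls and between 8534 and 12651 in Mll-deficient mice, with no overlap. Of 8 tested markers of the gate and of stem cells 2 fell, Mecom and Hlf, beside 1.76% of all tested genes, while Kit (-0.73) did not pass. The list had a median of -0.70 and sums of 2376 to 5716 units in controls and 1320 to 3286 in Mll-deficient mice. Among 8 megakaryocyte and 5 stroma and endothelium markers 0 passed in limma, with medians of -0.22 and -0.16, beside -0.04 for all tested genes. Of these, 2 and 0 had an unadjusted p under 0.05, beside at least 2598 of all 12580 tested genes. The part of these cell types in the fall of Ikzf2 was not tested.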

How the data were processed

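The authors deposited linear signal intensity values for each probe set, for which the submitters' processing notes name MAS5 5.0. The genome build is not given in the sources used here, so no coordinates are printed, and a RefSeq table served only for names and for which genes neighbour each other. Of 45101 probe sets, 64 were controls, 34958 had 1 gene symbol, 932 had several, which named no gene, and 9211 were unnamed here. The annotation's symbols were updated by Entrez identifier through the RefSeq table of GRCm38.p6 (34754 found). Values were taken as log2(signal + 16), which understates changes of dim probe sets. Each gene was represented by its brightest probe set (by mean over the 10 arrays) and tested where that mean exceeded the 40th percentile. The groups were compared with limma 3.58.1 (lmFit, then eBayes with trend, two-sided, run in R 4.3.3) over all 12580 genes, and again over all 45037 probe sets, with Benjamini-Hochberg adjustment. The 95% intervals are unadjusted. The fit was tested on simulated data. The number of arrays limits the precision, and p-values measure the spread between mice.

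The members and lists were chosen with earlier results of these data known. Genes named are the members, the genes of each list past the threshold or among its 3 with the smallest p, and the 3 closest in pattern to each member. Chd4, Hdac1, Smarca4, Igll1, Vpreb1, Hes1, Dtx1, Cd79a, Kit and Cd48 were added for their roles, and Prtn3, Elane and Mpo after their values were seen. Alternatives covered the offset, scaling, filter, averaging, variance prior, array weights, a replicate block, the RNA quality ratio and each array left out.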

Additional observations from a re-analysis of the deposited data

Results flagged for a closer look

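Of 28 groups of 5 arrays examined, 26 of member probe sets and 2 of the RNA quality ratio, 3 had 1 array far from the other 4, where chance gives about 1 in 20. On Ikzf2 probe set 1421643_at, control replicate 5 read 15.6 units beside 0.77 to 1.06 in the other controls, and Mll-deficient replicate 1 read 9.31 units beside 0.55 to 2.35. On Ikzf4 probe set 1438274_at, control replicate 5 read 44.4 units beside 24.0 to 26.6. Control replicate 5 was also the array with the highest 3' to middle ratio. The part of RNA quality in these values was not tested.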

How the results depend on the processing

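The gene-level call of Ikzf2 held in all 11 alternatives that kept every array, with differences between -1.02 and -0.75 and a highest adjusted p of 0.0403, and Ikzf3, Ikzf4 and Ikzf5 kept their direction and passed in none, except that the 60th percentile filter left Ikzf4 out, which elsewhere lay between -0.85 and -0.063 as its probe set switched. With 1 array left out, between 0 and 1 of the 5 genes passed, and Ikzf2 lay between -1.11 and -0.89, Ikzf3 between -0.0076 and 0.50 and Ikzf4 between -0.999 and -0.10. Averaging probe sets turned Ikzf1 to 0.016. The count of member probe sets called was 1 with quantile normalization, 0 with median centring and 0 with the replicate block (adjusted p = 0.0893 for 1437542_at and 0.0665 for 1456956_at), and between 0 and 2 with 1 array left out. Among uncalled probe sets, 1421643_at turned to 0.13 (offset 1), 0.018 (quantile), 0.035 (median centring) and 0.068 (array weights). The sign also turned for 1436554_at, at 0.017 (quantile) and 0.0021 (median centring), and under median centring for 1441088_at (0.011) and 1460664_at (0.0087). With 1 array left out these spanned -0.13 to 0.16 for 1421643_at, -0.18 to 0.041 for 1436554_at and -0.17 to 0.081 for 1441088_at, and 1453378_at spanned -0.0036 to 0.14.

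Of the pairs, Ikzf2 minus Ikzf4 was 0.74 with offset 1 and -0.55 with offset 64 (exact permutation p = 0.0159, adjusted p = 0.0529), and 1437542_at minus 1456956_at was -0.20 with offset 64. With 1 array left out, Ikzf2 minus Ikzf4 spanned -0.37 to 0.045, Ikzf3 minus Ikzf5 -0.30 to 0.46 and 1436649_at minus 1453378_at -0.049 to 0.50. Quantile normalization gave 2 passing pairs of probe sets, beside 0 (1437542_at minus 1421643_at and 1436312_at minus 1421303_at, exact permutation with adjusted p = 0.0317 each), and leaving out 1 array gave 0 to 2. In both pairs the second probe set was below the filter. Lymphoid genes called numbered 0 with offset 1, 0 with quantile normalization, 0 with median centring, 0 with no filter, 4 with the RNA quality covariate and 0 to 2 with 1 array left out. SWI/SNF genes called numbered 1 with median centring, 1 with averaged probe sets and 1 to 2 with 1 array left out. Corepressor genes called numbered 1 with averaged probe sets (Cdk2ap1) and 1 with the RNA quality covariate (Mbd3). Over all genes, calls rose from 694 to 1618 with that covariate and lay between 307 and 873 with 1 array left out, and higher genes made up 68.2% of calls, or 81.5% with median centring. The cause of these shifts was not tested.

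Same-numbered arrays correlated between -0.23 and 0.28 after removal of group means, and 1 of 10 arrays correlated best with its own number. With 5 arrays in each group, this check cannot exclude that arrays were paired or processed together. Signals near or below the filter limit what can be said of Ikzf3, Ikzf4 and the dim probe sets.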
